A study of Mus musculus with 8 samples.

Results

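The clustered protocadherins are cell-surface adhesion proteins encoded side by side on mouse chromosome 18. They were taken here as every row of the expression table whose symbol starts with Pcdha, Pcdhb or Pcdhg. That rule gave 58 of the 31276 genes in the table: 14 alpha members, 21 beta members, 22 gamma members and 1 further row, Pcdha4-g, whose symbol joins an alpha and a gamma gene. In RefSeq (GRCm38.p6) 57 of the 58 symbols had a position. The alpha cluster lay between 36930285 and 37188897, the beta cluster between 37264998 and 37521419, and the gamma cluster between 37661775 and 37841873. Symbols and positions together placed all 57 in the cluster their names give, and Pcdhb21 had no row.

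Each alpha or gamma protein is made by joining a variable exon of its own, which holds the outside and membrane-spanning parts, to constant exons that all members of that cluster share. Beta members have no constant exons and are each a gene with a single coding exon. In neurons, every variable exon has its own promoter, and promoters are chosen in part at random through CTCF, cohesin and DNA methylation, which gives each cell its own combination of surface proteins. Matching combinations bind each other and let a neuron recognise its own branches. Members of the C-type, such as Pcdhac2 and Pcdhgc3, are expressed more steadily than the others.

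The cells were C3H10T1/2, a mouse embryo line with mesenchymal character, at passages 10 to 15. Each of the 8 lines stably carried a histone H3 transgene with a FLAG-HA tag, on top of the cells' own H3 genes. In 6 lines the transgene was H3.3: wild type (WT), or with lysine 36 changed to alanine (K36A), isoleucine (K36I), leucine (K36L), methionine (K36M) or arginine (K36R). In the other 2 lines it was H3.1, with K36M or K36R, and no line with wild-type H3.1 was analysed here. Every transgene had 1 line and 1 library, so no group has a replicate and p-values below measure only the spread between lines. The study concerns mutations of lysine 36 of H3. Since no transgene has a second library, the 3 lines with K36M or K36I (H3.3 K36I and both K36M lines) were compared with the 5 other lines.

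The libraries held 45448249 to 68020958 reads assigned to genes, so that a gene with 0 reads may still hold up to 3 reads, which is 4.41e-06% to 6.60e-06% of a library. That limit covers counting error only. The mesenchymal genes Col1a1 (37646 to 58755 normalised reads) and Vim (209228 to 302757) were high in every library. Ptprc, which defines leukocytes, was at or near 0 throughout (at most 7.89 normalised reads). Of 8 epithelial markers, Epcam had at most 2.19 normalised reads, but Cdh1 had 292 to 1065 and Krt14 18.4 to 7403. Of 14 neuronal markers, Map2 (2020 to 15698), Stmn2 (408 to 6838), Ncam1 (810 to 4103) and Tubb3 (518 to 3518) were expressed in every library. Snap25 had 0 to 1.91 and Rbfox3 0 to 5.85 normalised reads, and Nefl and Nefm had 0 reads in all 8. A normalised read is a read divided by the library's size factor, which corrects for depth. Fewer cells with a transcript and less of it per cell cannot be told apart in these bulk libraries.

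Differences below are on the deposited log2 scale, a variance-stabilised scale that flattens low levels and so understates the change of weakly expressed genes. A gene was tested where its mean lay at least 1 above the table's lowest value, and called where the adjusted p from limma was under 0.05. Of the members 36 were tested: 13 beta, all 22 gamma, and Pcdha4-g. The other 22 were too low: all 14 alpha members and Pcdhb1, Pcdhb2, Pcdhb3, Pcdhb4, Pcdhb6, Pcdhb8, Pcdhb10 and Pcdhb13. Of the 36, 2 rose in the K36M and K36I lines (Pcdhb5 and Pcdhb7) and 0 fell. Of all 14215 genes tested, 13.3% were called in either direction and 6.45% were called higher. The 22 gamma rows and Pcdha4-g repeat nearly the same reads, as described below, so the 13 beta members are the fairer base. The 2 that rose are then 2 of 13, a number too small to set apart from those shares.

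The alpha cluster held few reads in the 5 lines without K36M or K36I, while the 3 lines with them carried reads over most of its variable exons. How the reads were counted matters for this result. In the 5 other lines 11 to 13 of the 14 alpha rows held exactly the same number, as rows would if each counted the reads on the shared constant exons again. The lowest row of a library is therefore taken here as its shared reads, and what a row holds above that as its own reads, which can be fewer than the true number on its variable exon. In GENCODE M21 the alpha members share 2860 bases of exon. Shared reads numbered 12 in H3.3 WT, 2 in H3.3 K36A, 2 in H3.3 K36L, 4 in H3.3 K36R and 20 in H3.1 K36R. They numbered 13 in H3.3 K36I, 51 in H3.3 K36M and 32 in H3.1 K36M, so that the groups overlapped in these reads, with H3.1 K36R above H3.3 K36I.

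Own reads separated the lines more clearly. Summed over the 14 members, own reads numbered 16 in H3.3 WT, 2 in H3.3 K36A, 2 in H3.3 K36L, 1 in H3.3 K36R and 9 in H3.1 K36R. The sums were 115 in H3.3 K36I, 344 in H3.3 K36M and 145 in H3.1 K36M. All 3 lines with K36M or K36I thus stood above all 5 others. In each of the 3, 13 of the 14 rows lay above the shared reads, against 1 row in H3.3 K36A, H3.3 K36L and H3.3 K36R, 2 rows in H3.3 WT and 3 rows in H3.1 K36R. With the shared reads counted once, the cluster held 240 ± 134 normalised reads (SD, n = 3 lines) in the K36M and K36I lines and 14.0 ± 13.7 (SD, n = 5) in the others. These totals are a description, with no test. As deposited, only the rows of Pcdha1 and Pcdha2 did not overlap between the groups. The sum of the deposited alpha rows overlapped too, at 253 normalised reads in H3.3 K36I and 316 in H3.1 K36R. The separation over most members thus rests on taking away the shared reads.

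**Figure D1:**
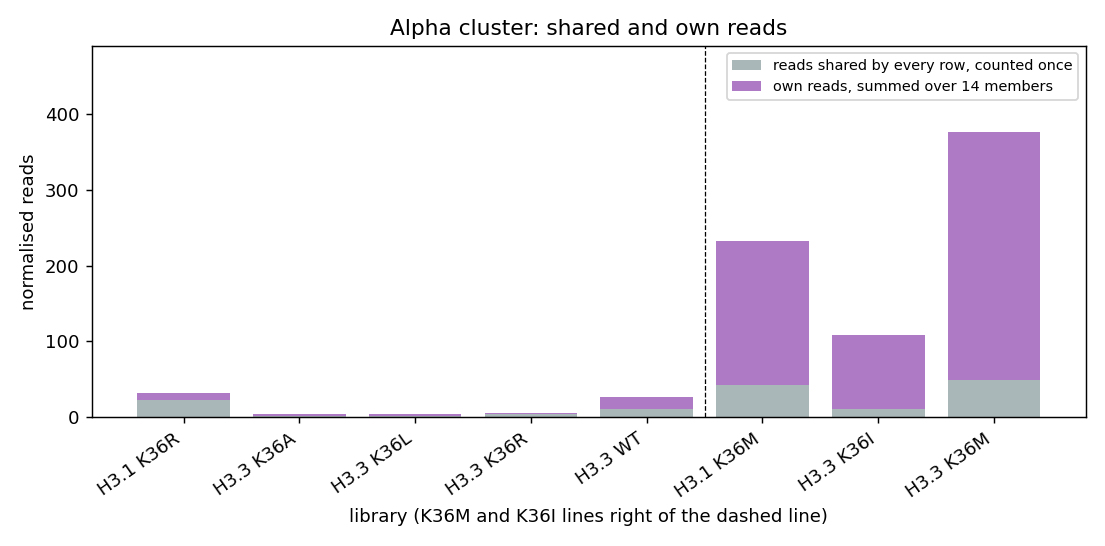
Alpha cluster in each library: reads shared by every row, counted once (grey), and own reads summed over the 14 members (purple), in normalised reads on a linear axis. Bars are single libraries without error bars. Lines with K36M or K36I are right of the dashed line and reach 109 to 377 normalised reads, against 3.83 to 31.7 for the lines left of it.

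Per kilobase of exon, the own reads of the alpha cluster were 5.15 to 9.62 times the shared reads in the 3 K36M and K36I lines. In the 5 other lines that ratio ran from 0.153 to 1.20, and in the gamma cluster from 0.769 to 1.08 over all 8 libraries. If every transcript joined its variable exon to all constant exons the ratio would be near 1. The alpha reads in the K36M and K36I lines therefore were denser on variable exons than on the constant ones. Whether such reads came from spliced alpha mRNA was not tested. Strand handling in the counting is not given in the sources used here, so sense reads and antisense reads over these exons cannot be told apart. In GENCODE M21, exons of Pcdha4, Pcdha6, Pcdha11 and Pcdha12 overlap opposite-strand genes. Exons of Pcdha4, Pcdha6, Pcdha7 and Pcdha11 overlap other genes on the same strand.

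Pcdha1, the first alpha gene in the cluster, had the highest mean of own reads of the alpha members, although Pcdha9 and Pcdha2 were above it in H3.3 K36I. It had 13 own reads in H3.3 K36I, 71 in H3.3 K36M and 36 in H3.1 K36M, and 0 in each of the 5 other lines. Its mean of 42.0 ± 28.7 own normalised reads (SD, n = 3) in the K36M and K36I lines was at least 14.3-fold higher than the floor of 3 reads in each other library. Pcdha8 had 12, 33 and 18 own reads in H3.3 K36I, H3.3 K36M and H3.1 K36M, at least 7.40-fold above that floor, and 0 in the others. Both genes were thus detected in 3 of 3 lines of the first group and 0 of 5 of the second.

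Pcdha4 had 8 own reads in H3.3 K36I, 38 in H3.3 K36M and 10 in H3.1 K36M, and Pcdha10 had 12, 14 and 9. Neither had any in the other lines. Pcdha9 had 17, 18 and 16 own reads in the 3 lines. It also had 2 in H3.3 K36L and 4 in H3.1 K36R, still below those 3 lines. Pcdha2, Pcdha3, Pcdha5, Pcdha7, Pcdha12 and Pcdhac1 had 1 to 29 own reads in each K36M or K36I line and 0 in every other line. The lowest of these, 1 read of Pcdha12 in H3.3 K36M and 3 of Pcdhac1 in H3.3 K36I, cannot be told from 0.

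In all, 11 of the 14 alpha members had more own reads in each of the 3 lines than in any other line, where 7.33% of all features were higher without overlap. That base includes the 8275 genes with 0 reads in every library, which cannot be higher. It also includes highly expressed genes, so it is not matched to genes as low as these. Over the whole table, more genes held reads in the 3 lines with K36M or K36I. They numbered 19893 to 20133 there and 18766 to 19196 in the other lines, without overlap. Whether the alpha reads go beyond that wider gain among weak genes was not tested. Of the 11, 9 had over 3 own reads in each of the 3 lines. The exceptions were Pcdha6, Pcdha11 and Pcdhac2. Pcdha6 had 29 own reads in H3.3 K36M and 8 in H3.1 K36M but 0 in H3.3 K36I, where its row set the shared level. Pcdha11 had 10, 11 and 2 in the 3 lines and up to 3 in the others. Pcdhac2, a C-type member, showed another order, with 14 own reads in H3.3 WT, 4 in H3.3 K36I, 2 in H3.1 K36R and 0 in the rest.

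No alpha row as deposited passed the filter. Without a filter 0 of the 14 rows were called by limma, although 13 had an unadjusted p under 0.05, and their adjusted p-values ran from 0.088 to 0.305, while 5.21% of all genes were called in either direction. Fitted as own reads with each shared read counted once, also without a filter, 10 of the 14 members rose, against 3.07% of all features called higher. The bases of 5.21% and 3.07% include genes with 0 reads in every library, and neither is matched to genes as low as these. This second fit was chosen after the values were seen. In it Pcdha1 differed by 1.09 (SE 0.175, adjusted p = 0.021) and Pcdha8 by 0.82 (SE 0.088, adjusted p = 0.006), and on the log2(own normalised reads + 1) scale 11 rose. The count fell to 4 without H3.3 WT, 4 without H3.3 K36R and 5 without H3.3 K36L. Rows at 0 in 5 libraries have no spread there, as with Pcdha10 (difference 0.62, SE 0.017). Those zeros follow from taking away the lowest row, so the small SE and p-values rest in part on that step. Neuronal markers, summed, were lower in the same 3 lines (5954 to 7565 normalised reads against 12298 to 28488). Of the 5 tested, only Map2 did not overlap between the groups (2020 to 2446 normalised reads against 7201 to 15698). The part of these markers in the alpha reads was not tested.

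The row Pcdha4-g tracked the gamma rows and not the alpha rows. It lay 12 to 29 reads below the lowest gamma row in 6 libraries, level with it in H3.1 K36M, and 34 reads above it in H3.3 K36M, the library in which Pcdha4 had 38 own reads.

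The beta cluster divided along its length. Among the beta members nearest the alpha cluster the K36M and K36I lines were higher, and among those nearest the gamma cluster they were on average lower. Pcdhb5 and Pcdhb7, both in the first stretch, were the tested members that rose.

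Pcdhb5 stood at 265 normalised reads in H3.3 K36I, 379 in H3.3 K36M and 290 in H3.1 K36M. In the other lines it stood at 66.9 in H3.3 WT, 81.8 in H3.3 K36L, 85.5 in H3.3 K36R, 162 in H3.3 K36A and 190 in H3.1 K36R. The groups did not overlap, with H3.1 K36R the highest of the other lines. The means were 311 ± 59.9 (SD, n = 3) and 117 ± 55.0 (SD, n = 5), a difference of 0.96 (SE 0.21, limma adjusted p = 0.020). The call was lost without H3.3 K36M (adjusted p = 0.088) and without the filter on low genes (adjusted p = 0.075).

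Pcdhb7 stood at 130 normalised reads in H3.3 K36I, 129 in H3.3 K36M and 57.8 in H3.1 K36M. It stood at 30.7 in H3.3 WT, 35.1 in H3.3 K36L, 35.1 in H3.3 K36R, 52.7 in H3.3 K36A and 51.4 in H3.1 K36R. H3.1 K36M lay just above H3.3 K36A, so the groups touched without overlapping. The difference was 0.60 (SE 0.16, limma adjusted p = 0.039), between means of 106 ± 41.4 (SD, n = 3) and 41.0 ± 10.3 (SD, n = 5). It was not called when any of the 6 H3.3 libraries was left out (adjusted p from 0.052 without H3.3 K36A to 0.149 without H3.3 K36M), nor without the filter (adjusted p = 0.102).

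Pcdhb9 stood at 112 normalised reads in H3.3 K36I, 126 in H3.3 K36M and 200 in H3.1 K36M. Among the others it stood at 9.50 in H3.3 K36R, 14.9 in H3.3 WT, 27.3 in H3.3 K36L, 73.8 in H3.3 K36A and 98.4 in H3.1 K36R. The groups did not overlap, but the difference of 0.94 (SE 0.28, limma adjusted p = 0.061) was not called. It was called without H3.1 K36R (adjusted p = 0.024), in H3.3 libraries alone (adjusted p = 0.048) and with the histone as a term (adjusted p = 0.026). Pcdhb5, Pcdhb7 and Pcdhb9 were the 3 of 36 tested members whose groups did not overlap, all higher. They are 3 of the 13 tested beta members, close to the 21.5% of all genes tested.

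Pcdhb4 and Pcdhb8, too low to be tested, also did not overlap between groups. Pcdhb4 had 48.5, 84.9 and 49.9 normalised reads in H3.3 K36I, H3.3 K36M and H3.1 K36M, and 5.85 to 28.4 in the others. Pcdhb8 had 44.2, 57.3 and 36.8 in the same 3 lines and 1.86 to 15.3 in the others, and it was the only member called without the filter on low genes. Pcdhb11 varied widely without following the groups. It stood at 36.2 in H3.3 WT, 56.5 in H3.3 K36L, 89.3 in H3.3 K36R, 186 in H3.3 K36A and 347 in H3.1 K36R, against 149 to 231 in the K36M and K36I lines (difference 0.43, limma adjusted p = 0.52).

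**Figure D2:**
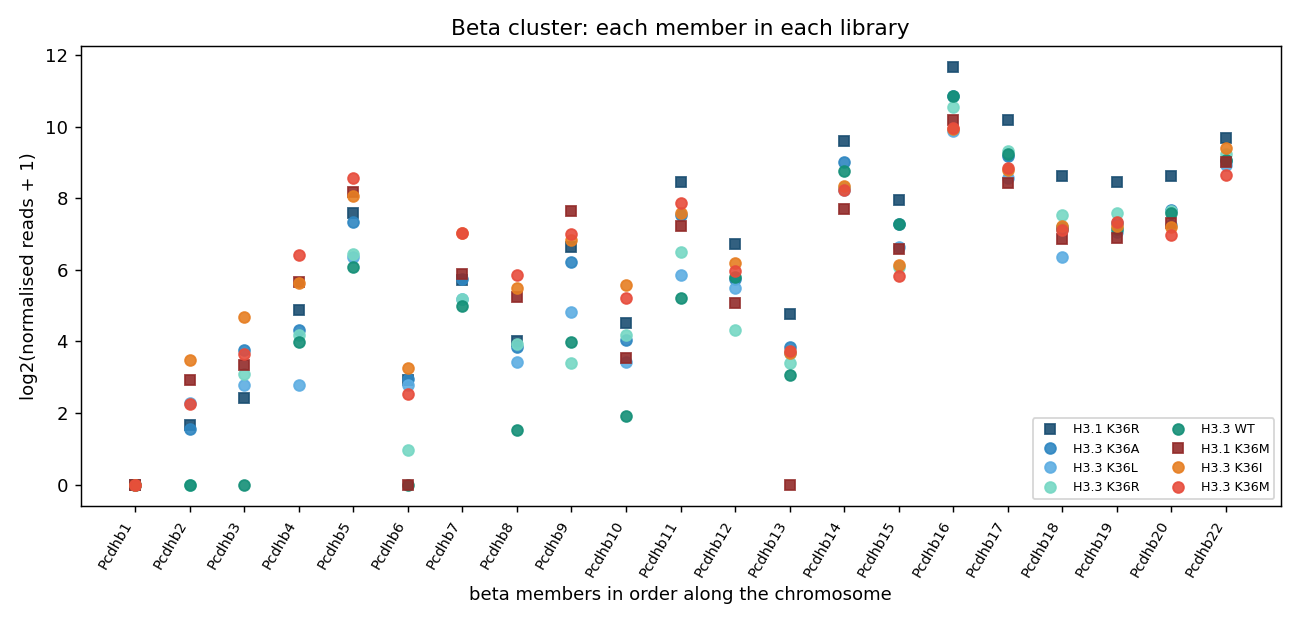
Beta members in order along the chromosome, with each library as a point on a log2(normalised reads + 1) axis. Circles are H3.3 lines and squares H3.1 lines, and red, orange and brown mark K36M and K36I lines. These lie highest at Pcdhb4, Pcdhb5, Pcdhb7, Pcdhb8 and Pcdhb9, while H3.1 K36R (dark square) is highest at each of the 11 members from Pcdhb11 on.

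Pcdhb16 was the most abundant beta member per length, at 300 normalised reads per kilobase of exon averaged over the 8 libraries, followed by Pcdhb17 at 124 and Pcdhb22 at 86.2. Its exon length comes from GENCODE M21. Pcdhb16 stood at 978 normalised reads in H3.3 K36I, 990 in H3.3 K36M and 1158 in H3.1 K36M. It stood at 938 in H3.3 K36L, 1486 in H3.3 K36R, 1857 in H3.3 K36A, 1863 in H3.3 WT and 3258 in H3.1 K36R. The 3 lines were low but H3.3 K36L was lower still, and the difference of -0.69 (SE 0.31, limma adjusted p = 0.19) was not called.

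Pcdhb17 was at 444, 457 and 340 normalised reads in H3.3 K36I, H3.3 K36M and H3.1 K36M. The others were at 375 in H3.3 K36L, 583 in H3.3 K36A, 606 in H3.3 WT, 639 in H3.3 K36R and 1161 in H3.1 K36R. H3.1 K36R again stood apart and H3.3 K36L overlapped the K36M and K36I lines (difference -0.51, SE 0.26, limma adjusted p = 0.25). Pcdhb22 moved least of these 3, from 403 in H3.3 K36M to 818 in H3.1 K36R, with a difference of -0.14 (SE 0.18, adjusted p = 0.67). Exons of Pcdhb22 overlap those of Pcdhb21 in GENCODE M21, so part of its reads may be Pcdhb21's.

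The remaining tested beta members gave differences of -0.54 for Pcdhb14, -0.48 for Pcdhb15, -0.40 for Pcdhb20, -0.25 for Pcdhb19, -0.22 for Pcdhb18 and 0.03 for Pcdhb12, none called (limma adjusted p from 0.206 to 0.943). Pcdhb12 overlaps an opposite-strand gene, Gm37446. Of the low members not yet given, Pcdhb10 reached 46.8 normalised reads, Pcdhb13 26.2, Pcdhb3 24.7, Pcdhb2 10.2 and Pcdhb6 8.51 in their highest library, and Pcdhb1 had 0 reads in all 8.

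The division was counted after it had been seen, so it is a description. From Pcdhb1 to Pcdhb11, 9 of the 11 rows had a higher mean of the deposited values in the K36M and K36I lines and 1 a lower mean. From Pcdhb12 to Pcdhb22, 1 of the 10 rows had a higher mean and 9 a lower one. Summed over the first stretch, the K36M and K36I lines held 810 to 1063 normalised reads and the others 168 to 765, without overlap. Over the second stretch they held 2697 to 3014 and 2619 to 7525, so that the lines with K36M or K36I lay inside the range of the others, near its lower end. The 7525 was H3.1 K36R, and the H3.3 lines among the others held 2619 to 4214. For some members the lower mean rests largely on H3.1 K36R. Pcdhb18 had 391 normalised reads there and 81.8 to 185 in the H3.3 lines of that group, against 116 to 149 in the K36M and K36I lines.

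**Figure D3:**
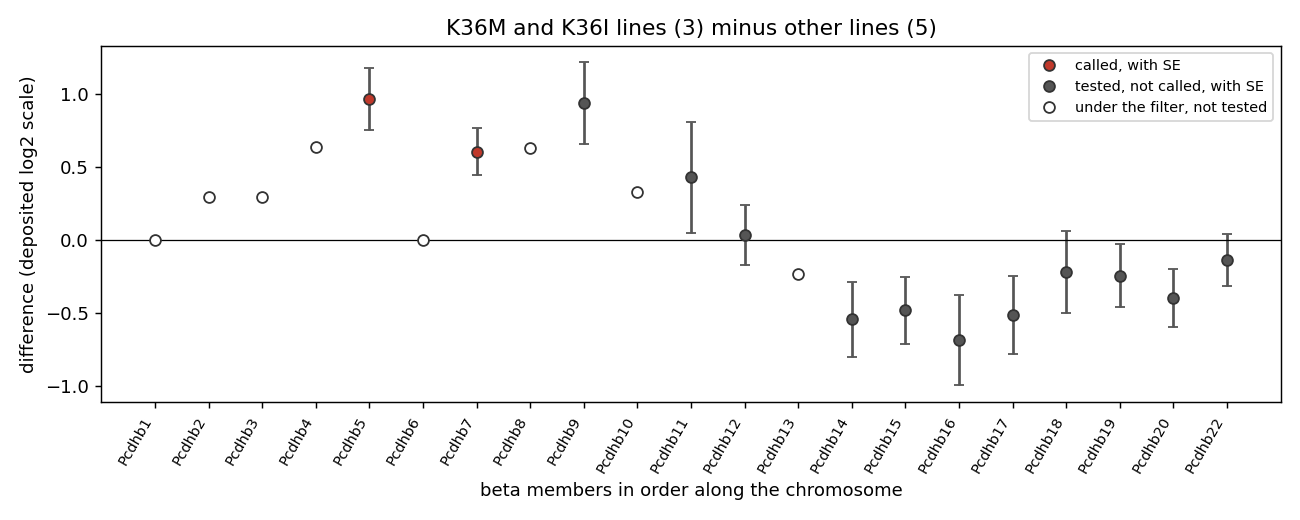
Difference between the mean of the 3 K36M and K36I lines and the mean of the 5 other lines for each beta member, in order along the chromosome, on the deposited log2 scale. Bars are the SE from limma for tested members, red points were called and open points were too low to test. Points lie at or above 0 up to Pcdhb12 (Pcdhb6 is at -0.0017) and below 0 from Pcdhb13 on. The mean of the 5 other lines includes H3.1 K36R, the highest library at every member from Pcdhb11 on.

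Within a histone, where each comparison is 1 library against 1 library and has no test, the counts were taken for each pair of K36M and K36R lines. H3.3 K36M was above H3.3 K36R at 10 rows of the first stretch and below it at 0, and above it at 2 and below it at 8 of the second. H3.1 K36M was above H3.1 K36R at 7 and below it at 3 of the first, and below it at all 10 of the second. Against H3.3 WT, H3.3 K36I and H3.3 K36M were each above it at 10 rows of the first stretch and below it at 0. In the second, H3.3 K36I was above H3.3 WT at 5 and below it at 5, and H3.3 K36M above it at 3 and below it at 7. H3.1 K36R had the highest value of the 8 libraries for 11 of the 20 beta members with any read. H3.3 K36I was highest for 5, H3.3 K36M for 3 and H3.1 K36M for 1. Whether H3.1 K36R differs through its transgene or as 1 line cannot be told apart.

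Counting differences of at least 1 on the deposited scale gives the size of the change in each line. Against H3.3 WT, 3 of the 36 tested members passed in H3.3 K36I (Pcdhb5, Pcdhb9 and Pcdhb11, all higher), where 7.63% of all tested genes passed. The same 3 passed in H3.3 K36M, where 8.69% of genes passed, and both comparisons use the same H3.3 WT library. In H3.3 K36A 1 member passed (Pcdhb11, higher, background 2.08%), and 0 passed in H3.3 K36L (1.03%) and H3.3 K36R (1.76%). H3.3 K36M was higher than H3.3 K36R at Pcdhb5 and Pcdhb9 (2 members, background 7.85%). H3.1 K36M was lower than H3.1 K36R at 5 members, Pcdhb14, Pcdhb16, Pcdhb17, Pcdhb18 and Pcdhb19, with a background of 7.02%.

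Beta members resemble each other in sequence, and reads from alike stretches could be counted to the wrong member or dropped. Of the 50-base words in their exons, between 0% (Pcdhb1) and 12.0% (Pcdhb12, shared most with Pcdhb11) also occur in another beta member. The share was 4.79% for Pcdhb5, 8.57% for Pcdhb7, 8.75% for Pcdhb9 and 2.05% for Pcdhb16, so most positions in these genes are distinct at that length.

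The gamma cluster was the most strongly expressed of the 3 and did not separate the K36M and K36I lines from the rest. As in the alpha cluster the 22 gamma rows counted the same constant-exon reads again, here 98.6% to 99.5% of the median row. In GENCODE M21 they share 2116 bases of exon. Exons of each gamma member also overlap those of the annotated genes Gm42416, Gm37013, Gm37388 and Gm38182. The 22 rows are therefore close to 1 measurement, and counts of them do not add up as independent results.

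Shared gamma reads stood at 3209 normalised reads in H3.3 WT, 5360 in H3.3 K36A, 3559 in H3.3 K36L, 4911 in H3.3 K36R and 5400 in H3.1 K36R. They stood at 3559 in H3.3 K36I, 3243 in H3.3 K36M and 5533 in H3.1 K36M. High values came from both H3.1 lines, H3.3 K36A and H3.3 K36R, and low values from the other 4, so both groups held high and low lines. As deposited, the 22 rows differed by -0.12 to -0.19 between the K36M and K36I lines and the others, and 0 were called (0 with an unadjusted p under 0.05).

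**Figure D4:**
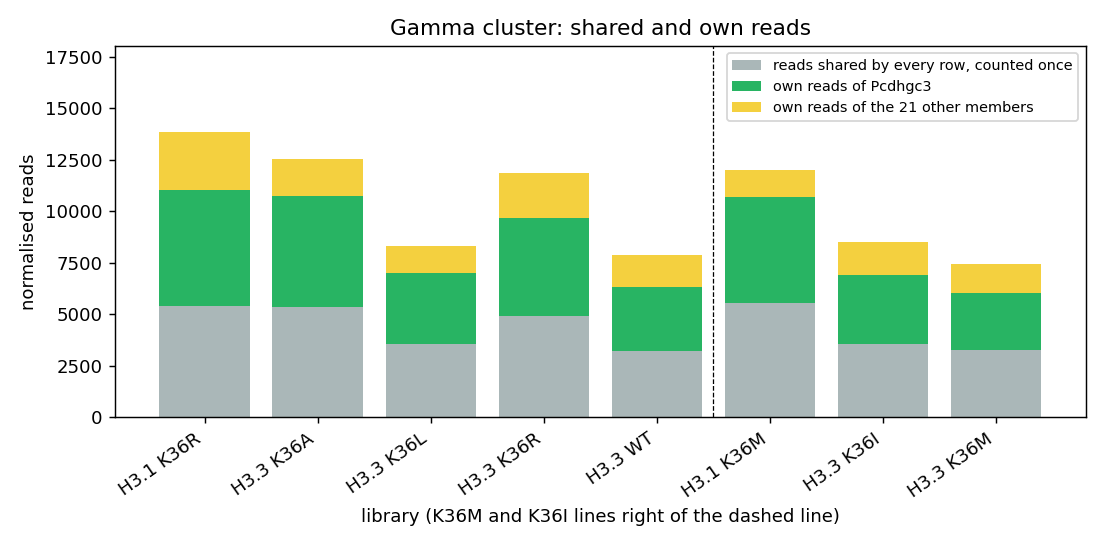
Gamma cluster in each library: reads shared by every row, counted once (grey), own reads of Pcdhgc3 (green) and own reads of the 21 other members (yellow), in normalised reads on a linear axis. Bars are single libraries without error bars. High and low totals, from 7430 to 13861, occur on both sides of the dashed line.

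Pcdhgc3, a C-type member, supplied most of the own reads. It was also the highest per length, at 1240 own normalised reads per kilobase against 128 for Pcdhgb7 and 101 for Pcdhgb2. Above the lowest row of the cluster, its own reads made up 66.7% of the cluster's own reads in H3.3 WT (95% Wilson interval 65.4% to 68.0%), 74.6% in H3.3 K36A, 72.2% in H3.3 K36L, 68.6% in H3.3 K36R and 66.2% in H3.1 K36R. The share was 67.6% in H3.3 K36I, 66.1% in H3.3 K36M and 80.0% in H3.1 K36M (78.8% to 81.1%), the highest of the 8. The intervals cover counting error only. Pcdhgc3 overlaps an opposite-strand gene, BC037039.

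As deposited, Pcdhgc3 stood at 6318 normalised reads in H3.3 WT, 10716 in H3.3 K36A, 6908 in H3.3 K36I, 6980 in H3.3 K36L, 6009 in H3.3 K36M, 9668 in H3.3 K36R, and in the H3.1 lines at 10687 with K36M and 11006 with K36R. Both H3.1 lines were near the top, but H3.3 K36A reached the same level. In the comparison of the 2 H3.1 lines with the 6 H3.3 lines, with the K36M and K36I group as a term, it differed by 0.55 (SE 0.20, limma adjusted p = 0.112). All 22 gamma rows were higher by 0.48 to 0.55 with an unadjusted p under 0.05, and 0 were called.

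In that comparison 0 of the 36 tested members were called (27 with an unadjusted p under 0.05, among them Pcdhb9, Pcdhb15, Pcdhb16 and Pcdhb20), where 11.0% of all genes tested were. Without H3.3 K36A, Pcdhb9 was called higher in the H3.1 lines (adjusted p = 0.046). Whether the K36M and K36I difference itself changed with the histone was fitted as an interaction. Each group held 1 H3.1 library, so that fit could not decide the question, and no conclusion is drawn from it. Between single libraries, the median over the tested beta members was -0.85 for H3.1 K36M minus H3.1 K36R. For H3.3 K36M minus H3.3 K36R it was -0.11. Over the gamma rows the medians were 0.02 and -0.59.

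Own reads of the weaker gamma members depended on the level taken as shared. In 6 libraries the lowest row was Pcdha4-g. In H3.1 K36M it was level with the lowest gamma row, and in H3.3 K36M a gamma row lay below it. Own reads in both K36M lines are thus counted from a gamma row, which lowers them there. With that level the mean of own normalised reads was lower in the K36M and K36I lines for 21 of the 22 members, and 1 of the 16 past the filter, Pcdhga8, was called, against 13.3% of all features in either direction. With the lowest of the 22 gamma rows taken in every library, 15 of the 22 means were lower and 0 members were called. With Pcdha4-g less the own reads of Pcdha4 as the level, 18 were lower and 0 were called. These fits were added after the values were seen.

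Pcdhga8 kept lower own reads in each K36M or K36I line under all 3 levels, but its call did not hold. With the lowest gamma row as the level it had 44.2 own normalised reads in H3.3 K36I, 37.2 in H3.3 K36M and 22.3 in H3.1 K36M. The others held 48.8 in H3.3 K36A, 55.5 in H3.3 K36L, 56.7 in H3.3 WT, 77.6 in H3.1 K36R and 82.6 in H3.3 K36R. H3.3 K36I lay close to H3.3 K36A, and the difference of -0.36 (SE 0.12, limma adjusted p = 0.096) was not called. With Pcdha4-g less Pcdha4 the adjusted p was 0.082, and with the first level it was 0.047, or 0.107 without the filter on low values. Pcdhga2 and Pcdhga9 did not overlap between groups with the first level and overlapped with both others.

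Pcdhgb7 and Pcdhgb2 were the next after Pcdhgc3 in own reads, here and below with the lowest row of the cluster as the level. Pcdhgb7 had 272, 330 and 283 own normalised reads in H3.3 K36I, H3.3 K36M and H3.1 K36M, and 294 to 426 in the others. Pcdhgb2 had 316, 232 and 289 against 187 to 401. Pcdhga4, the deposited row with the next largest SD after Pcdhgc3, ran from 38.0 own normalised reads in H3.3 K36L and 47.4 in H3.3 WT to 210 in H3.3 K36R and 284 in H3.1 K36R, with the K36M and K36I lines between at 57.8 to 100.2. The means of own normalised reads of the other members ran from 19.2 for Pcdhgb5 to 211 for Pcdhga6.

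**Figure D5:**
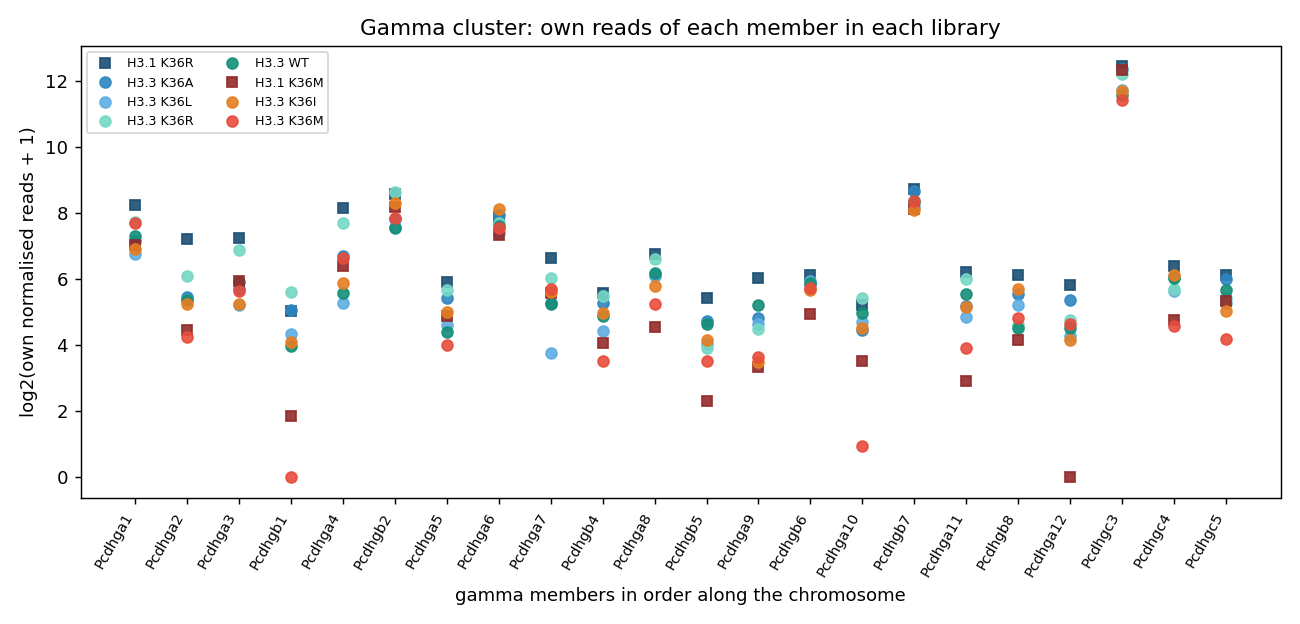
Own reads of each gamma member in order along the chromosome, with each library as a point on a log2(own normalised reads + 1) axis. Circles are H3.3 lines and squares H3.1 lines. Pcdhgc3 stands above all others in every library. Own reads are above the lowest row of the cluster, Pcdha4-g included, so points at 0 are gamma rows that set that level in their library.

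Between the K36M and K36I lines and the others, the remaining genes of chromosome 18 did not follow the clusters as a block. Of 312 tested outside them 17 rose and 16 fell in the K36M and K36I lines, with a median difference of 0.07 against -0.01 over all genes tested. Of 24 tested neighbours on either side of the clusters and between them, 1 rose and 1 fell. For both sets the share to compare is that over all genes tested, 6.45% called higher and 13.3% in either direction. Gnpda1, a glucosamine-6-phosphate deaminase, rose by 0.48 (SE 0.12, limma adjusted p = 0.032). Pcdh1, a non-clustered protocadherin beyond the gamma cluster, fell by 2.48 (SE 0.32, limma adjusted p = 0.002). It held 57.9 ± 69.7 normalised reads (SD, n = 3) in the K36M and K36I lines against 669 ± 177 (SD, n = 5). Taf7 and Slc25a2, which lie between the beta and gamma clusters, differed by -0.05 (SE 0.15) and 0.03 (SE 0.17) and were not called. In the comparison of H3.1 with H3.3, 17 of the 312 were called higher in the H3.1 lines and 4 lower. Of all genes tested, 11.0% were called in either direction there. The median difference of the 312 was 0.10, against 0.00016 over all genes tested. The gamma rows were also higher in the H3.1 lines, and whether the 2 shifts go together was not tested. Of the neighbours, Apbb3 was called, higher by 0.45 (SE 0.10, limma adjusted p = 0.035).

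Of 8 tested non-clustered protocadherins 2 rose, both outside chromosome 18, and Pcdh1 fell, where 13.3% of all genes tested were called in either direction. Pcdh10 had 63.0, 102 and 78.9 normalised reads in H3.3 K36I, H3.3 K36M and H3.1 K36M and 6.56 to 34.1 in the others (difference 0.87, SE 0.15, limma adjusted p = 0.007). Pcdh19 rose by 0.60 (SE 0.13, adjusted p = 0.018). Pcdh18 was higher in the H3.1 lines by 0.80 (SE 0.17, adjusted p = 0.030).

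Of 26 tested genes for promoter choice and silencing at the clusters, 0 rose and 2 fell, where 13.3% of all genes tested were called in either direction. Tet1, which oxidises 5-methylcytosine, stood at 212, 240 and 283 normalised reads in H3.3 K36I, H3.3 K36M and H3.1 K36M and at 444 to 654 in the others (difference -0.91, SE 0.12, limma adjusted p = 0.002). Stag1, a cohesin subunit, fell by 0.29 (SE 0.07, adjusted p = 0.030). Ctcf, the insulator protein bound at the variable promoters, differed by -0.20 (adjusted p = 0.18), and Smchd1, a silencer of the clusters, by 0.12 (adjusted p = 0.31). The methyltransferases Dnmt3a and Dnmt3b differed by -0.26 (adjusted p = 0.131) and -0.32 (adjusted p = 0.206).

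Of 26 tested genes for cleavage of protocadherins and signalling from them, 2 rose and 4 fell, where 13.3% of all genes tested were called. Ptk2b, a kinase of the focal adhesion kinase family that protocadherin tails bind, rose by 1.46 (SE 0.21, limma adjusted p = 0.003). Ret, a receptor kinase that can pair with these proteins, rose by 1.82 (SE 0.46, adjusted p = 0.034). Marcks, an actin-binding substrate of protein kinase C, fell by 1.26 (SE 0.30, adjusted p = 0.026), and Aph1b, a gamma-secretase subunit, fell by 0.90 (SE 0.18, adjusted p = 0.013). Between the histones Ptk2, the focal adhesion kinase itself, was lower in H3.1, with a difference of -0.52 (SE 0.13, limma adjusted p = 0.045).

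Of the marker lists, the neuronal, mesenchymal, endothelial and leukocyte sums did not overlap between the groups, and the glial and epithelial sums did. Over all genes tested 21.5% did not overlap, and a sum can rest on 1 abundant gene. Taken singly, 1 of 5 tested neuronal genes did not overlap, and 2 of 3 endothelial genes. Of 12 mesenchymal genes 1 lay above and 2 below, and the only leukocyte gene tested, Cd68, lay above. The 14 neuronal markers summed to 5954 to 7565 normalised reads in the K36M and K36I lines and to 12298 to 28488 in the others, the opposite direction to the alpha members. Of 5 tested, Map2 fell by 2.14 (SE 0.23, limma adjusted p = 0.001), and the others overlapped between the groups. Tubb3 was lower in H3.1 by 1.68 (SE 0.26, limma adjusted p = 0.011). The 12 mesenchymal markers summed to 647589 to 899308 in the K36M and K36I lines and to 928111 to 1207139 in the others. Of them Fn1 fell by 1.01 and Twist1 rose by 0.47 (adjusted p = 0.017 and 0.019), and Pdgfra was higher in H3.1 by 0.84 (adjusted p = 0.005). Endothelial markers summed to 496 to 595 against 1925 to 3751, with Erg (-2.47) and Tek (-2.41) called. Glial markers summed to 836 to 1658 against 1567 to 5236, epithelial markers to 725 to 1774 against 565 to 7854, and leukocyte markers to 213 to 286 against 147 to 182. In these 3 lists 0 genes were called, and S100b (adjusted p = 0.071), Krt14 (0.23) and Cd68 (0.070) differed most. Pecam1, which defines endothelium, had 5.10 to 20.5 normalised reads, and Gfap, of astrocytes, 4.37 to 38.3. What part such shifts have in the protocadherin values was not tested.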

How the data were processed

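RNA of 8 C3H10T1/2 lines was sequenced after Trizol extraction and TruSeq library preparation, per the labels' protocols. Per the submitters' processing notes, Trimmomatic 0.32, STAR 2.3.0e, featureCounts 1.4.4, DESeq2 and the mm10 build were used. The sources used here do not give their annotation, strand setting or treatment of reads that hit several genes. The authors deposited variance-stabilised log2 values per gene, whose lowest value is 5.95.

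Inverting that transform gave whole reads for 100% of values within 0.001 reads, and the size factors. These gave normalised reads, shared reads and own reads. Members, lists and comparisons were chosen with earlier results of these data known. Differences were tested with limma 3.58.1 (R 4.3.3, intensity trend, two-sided, Benjamini-Hochberg over every gene tested), on all 8 libraries, for genes with a mean at least 1 above the lowest value. Groups came from the genotype labels. The comparison of H3.1 with H3.3 had the K36M and K36I group as a term. Nothing in the labels says that lines are separate isolates of a group.

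Members past the test are given by library. In each cluster the 3 with the highest mean and the 3 with the largest SD among those tested are given by library or partly as a range. For gamma these are own reads, since the rows share reads. Up to 4 called genes a list are named, or else the largest difference. The result of 1 listed gene is not reported here. Library medians differed by less than 0.1, so no shift was removed. On counts drawn to mimic these libraries, with 100 of 14215 genes changed by log2 1 and 100 by log2 2, the K36M and K36I comparison recovered 64 and 87 and called 6 unchanged genes. The histone comparison recovered 63 and 87 and called 10. Alternatives were other filters, log2 of normalised reads with a pseudocount of 1 or 16, equal medians, array weights, the histone as a term, subsets of libraries, and leaving out each library.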

Additional observations from a re-analysis of the deposited data

Results flagged for a closer look

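Pcdhb20 in H3.1 K36R stood apart from the 4 other lines without K36M or K36I. It had 390 normalised reads there, and its gap to the next library was 0.7137 of the group's range, just past the critical value of 0.71 for 5 values. It was 1 of 36 members examined this way, and chance alone marks about 1 group in 20. The 22 gamma rows among them share most reads and so are not separate trials.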

How the results depend on the processing

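No paired analysis was possible because every transgene has 1 library and the labels carry no replicate numbers shared between groups. In the comparison of K36M and K36I lines with the others, 1887 genes were called. Array weights gave 4074, the histone as a term 2959, and leaving out a library 1021 to 2084. The 2 members called became 1 without the filter, 1 with a filter at a mean of 2, 4 with array weights and 11 with shared reads counted once and no filter (added after seeing the data), and 0 to 3 with a library left out (0 without H3.3 K36M). In the histone comparison 1567 genes became 553 without the filter, 414 with array weights, 563 with shared reads counted once and no filter, 12 in K36M and K36R libraries only, and 183 to 1934 with a library left out. Members called ranged from 0 to 1. Some differences between histones changed sign with a library left out, over ranges of -0.59 to 0.17 for Pcdhb7, -0.096 to 0.59 for Pcdhb5, -0.32 to 1.32 for Pcdhb11, -0.42 to 0.85 for Pcdhb14 and -0.32 to 0.96 for Pcdhb17. The sign changed without H3.1 K36M for Pcdhb7 and without H3.1 K36R for the rest. Members at least 1 apart became 5 for H3.3 K36M minus H3.3 WT without the filter, and 13 without it or 1 at a mean of 2 for H3.3 K36M minus H3.3 K36R. The log2 ratio of summed alpha rows, 2.95, became 4.56 with shared reads counted once and 0.73 as a median of log2 values. That of the beta cluster, -0.28, became 0.49 as a median of log2 values, in which each member weighs the same. That of the gamma cluster, -0.14, ranged from -0.37 to 0.0079 with a library left out, the last without H3.3 K36M. The 10 alpha members called from own reads became 4 to 9. The 1 gamma member called from own reads became 0 without the filter and with either other level of shared reads. Causes not named were not tested. Where a line is the only library of its transgene, leaving it out removes that transgene. At 3 reads or fewer in a library, alpha own reads and the lowest beta members cannot be told from 0.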
